A study of Mus musculus with 21 samples.

Results

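H3K4me1, the histone mark placed at enhancers and beside promoters, was followed from the naive to the formative state in mouse embryonic stem cells that lack both MLL3 and MLL4 (genotype MLL3KO_MLL4KO, here DKO). The quantity described is the log2 level of a region in formative cells minus that in naive cells. Members were all regions of the deposited table with a mean wild-type concentration (Conc) of at least 5, which is 32 normalized reads on a log2 scale. They numbered 111035 of the 186824 regions with levels. Naive cells were kept with LIF and 2i, and formative cells were collected 63 h after both were withdrawn. The mark was profiled by CUT&RUN, in which an antibody tethers a nuclease that releases the chromatin around its target. The same transition in 3 other genotypes was set beside that of DKO: wild type, a line with the MLL3 knockout and a floxed but intact MLL4 (MLL3KO_MLL4fl, the floxed line), and MLL3CD_MLL4CD (dCD), whose CD alleles of both genes stand for catalytically dead enzymes. The line label is R1 for wild type and for dCD and is missing for the floxed line and DKO, so whether those lines share a clone is not given in the sources used here. Each of the 8 groups had 2 libraries, but the table gives 1 pooled level per group. No spread between replicates could be computed, no comparison between groups of DKO was tested, and every difference below is a size without a p-value.

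MLL3 (gene Kmt2c) and MLL4 (gene Kmt2d) are large methyltransferases that act within COMPASS-like complexes and are the main writers of H3K4me1 at enhancers. Naive embryonic stem cells express factors such as KLF4, TFCP2L1, ESRRB and PRDM14. On leaving 2i and LIF they switch these off and turn on FGF5, POU3F1 and OTX2, and enhancers of the old state lose H3K4me1 while those of the new state gain it. The regions measured here show the mark and not the enzymes, so they do not check the deletions.

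Regions whose sequences are shown were picked for the findings they carry, after their values were seen. Each sequence is the central 300 bases of the region on the plus strand of GRCm38, 5′ to 3′, read from the RefSeq assembly and matched to the mm10 coordinates of the table. Capitals mark matches, on either strand, to the 14 motifs searched further below, and none of the windows overlaps an annotated exon. A region downstream of Klf4 (chr4:55470711-55473448, intergenic) had less of the mark in formative than in naive DKO cells. Regions in a Foxp1 intron (chr6:99023606-99027548) and near Plaat1 (chr16:29192244-29193927, intergenic) had more, and the region downstream of Fgf5 (chr5:98280324-98286220, intergenic) had more mainly in wild type and the floxed line.
Klf4 side, chr4:55471930-55472229: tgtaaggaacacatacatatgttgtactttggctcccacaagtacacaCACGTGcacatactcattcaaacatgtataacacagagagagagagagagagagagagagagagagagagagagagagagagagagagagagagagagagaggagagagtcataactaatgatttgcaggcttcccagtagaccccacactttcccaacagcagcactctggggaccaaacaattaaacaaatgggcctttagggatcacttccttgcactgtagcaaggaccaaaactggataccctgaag
Foxp1 intron, chr6:99025428-99025727: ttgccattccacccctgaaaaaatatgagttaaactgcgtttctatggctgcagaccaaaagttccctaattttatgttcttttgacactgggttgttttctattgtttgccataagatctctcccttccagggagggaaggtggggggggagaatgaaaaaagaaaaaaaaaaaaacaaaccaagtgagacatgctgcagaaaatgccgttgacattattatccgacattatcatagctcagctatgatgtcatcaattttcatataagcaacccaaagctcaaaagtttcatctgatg
Plaat1 side, chr16:29192936-29193235: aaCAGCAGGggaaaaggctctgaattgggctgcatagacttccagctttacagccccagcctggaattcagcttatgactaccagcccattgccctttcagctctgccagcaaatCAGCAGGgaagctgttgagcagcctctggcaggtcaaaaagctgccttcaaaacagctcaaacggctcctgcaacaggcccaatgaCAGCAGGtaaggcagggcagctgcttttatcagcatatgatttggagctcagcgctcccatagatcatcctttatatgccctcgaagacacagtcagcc
Fgf5 side, chr5:98283123-98283422: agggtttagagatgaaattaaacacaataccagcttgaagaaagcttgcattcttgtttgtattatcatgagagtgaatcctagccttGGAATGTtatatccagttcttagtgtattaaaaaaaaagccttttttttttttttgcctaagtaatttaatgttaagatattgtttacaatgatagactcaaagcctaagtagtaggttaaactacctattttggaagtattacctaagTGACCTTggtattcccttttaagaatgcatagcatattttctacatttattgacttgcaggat
The Klf4-side window held 1 E-box match. The Plaat1 window held 3 ZIC matches, the Fgf5 window a TEAD and a nuclear receptor half-site match, and the Foxp1 window none.

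Most of the transition seen with active enzymes was missing from DKO. Of the 111035 regions, 444 were higher in formative DKO cells by 2-fold or more (0.400%) and 442 were lower (0.398%). In wild type 7900 were higher and 9814 lower, in the floxed line 6819 and 10921, and in dCD 580 and 1529. The SD of the differences over regions was 0.33 in DKO, against 0.73 in wild type, 0.71 in the floxed line and 0.41 in dCD. The median DKO difference was 0.01, with quartiles at −0.20 and 0.21. The median region had 52.8 reads in naive and 51.7 in formative DKO cells, against 65.0 and 59.4 in the floxed line. Fewer cells with the mark and less of it per cell cannot be told apart in these bulk profiles. Across regions, which are not independent replicates, the DKO differences correlated with those of dCD at r = 0.36, of wild type at r = 0.29 and of the floxed line at r = 0.28 (n = 111035), while wild type and the floxed line correlated at r = 0.83. The regions past 2-fold were thinly covered in DKO. Their median was 17.0 reads for the higher and 27.4 for the lower regions, against 52.3 over all regions. With at least 32 DKO reads, a limit set after the data were seen, 87 of 84030 regions were higher and 169 lower. What counting error contributes to the thin regions was not tested on the libraries, which the table pools.

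The size of the DKO change followed the size of the wild-type change, at a small fraction of it. Among the 957 regions that gained more than 2 log2 units in wild type (4-fold), the median difference was 0.23 in DKO, 0.39 in dCD and 1.81 in the floxed line. Among the 391 regions that lost more than 2 log2 units in wild type, it was −0.29 in DKO, −0.52 in dCD and −1.80 in the floxed line. The share of regions with the wild-type sign in DKO was 71.8% and 77.2% in these bins, and 99.7% and 98.7% in the floxed line. A sign in common is thus frequent where the wild-type change is large, while the DKO amplitude stays small.

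**Figure D1:**
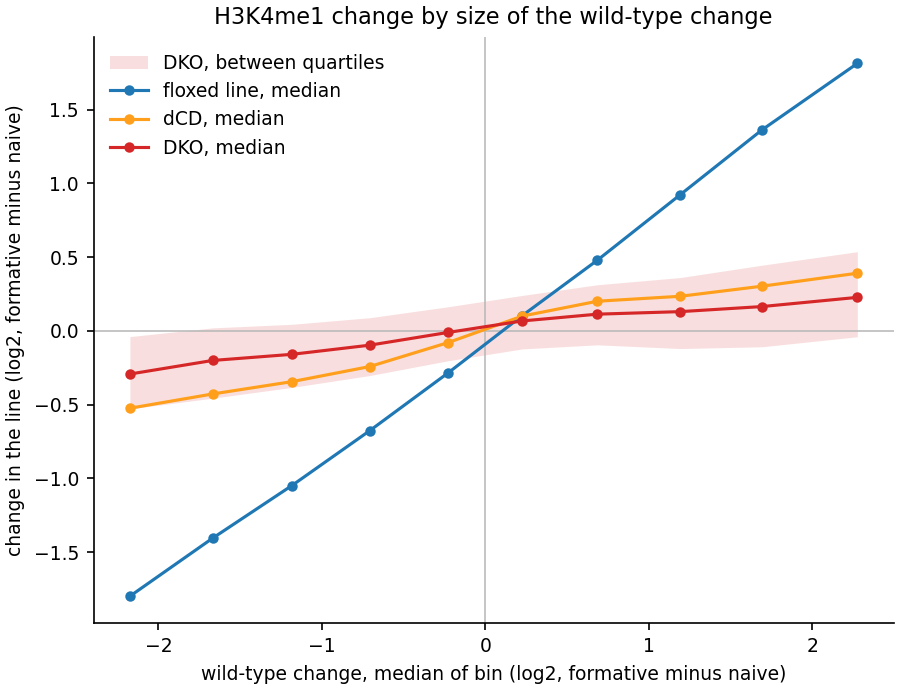
Median H3K4me1 change (log2, formative minus naive) in the floxed line, dCD and DKO for 10 bins of the wild-type change, with the span between the DKO quartiles shaded. The DKO line runs from −0.29 to 0.23 while the floxed line runs from −1.80 to 1.81.

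Regions gained in wild type, by the FDR under 0.05 in the authors' deposited table, numbered 12046. Their median DKO difference was 0.15, against 0.85 in the floxed line and 0.27 in dCD. Of them, 205 (1.70%) were still at least 2-fold higher in formative DKO cells, and 68.3% had a positive difference. Levels relative to naive floxed cells show where these sites stood. The median was −0.18 in naive DKO cells and −0.04 in formative DKO cells, against 0.85 in formative floxed cells. Gained sites in DKO therefore ended at about the level from which the floxed line started.

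Regions lost in wild type numbered 14975 by the same table. Their median DKO difference was −0.14, against −0.98 in the floxed line and −0.33 in dCD, and 148 (0.988%) were still at least 2-fold lower. Relative to naive floxed cells, naive DKO cells stood at −0.64 and formative DKO cells at −0.81, while formative floxed cells stood at −0.98. Naive DKO cells stood at −0.17 at stable and −0.26 at all regions on the same scale. The shortfall of naive DKO against naive floxed cells was thus larger at sites lost in wild type than at regions in general. Median naive DKO reads were 58.2 at the lost and 52.8 at all regions. A negative difference was seen in 69.6% of the lost regions in DKO, 84.5% in dCD and 98.5% in the floxed line. The 55752 regions stable in wild type had a median of 0.03 in DKO.

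Regions past 2-fold in DKO lay more often among the classes of the matching direction. Of the 444 higher regions, 205 (46.2%) were gained in wild type, against 10.8% of all regions, and 4 were lost. Of the 442 lower regions, 148 (33.5%) were lost in wild type, against 13.5% of all, and 10 were gained. The sign was shared with wild type in 376 of the higher and 335 of the lower regions, with the floxed line in 340 and 360, and with dCD in 318 and 336. Over all 111035 regions it was shared with wild type in 66836, with the floxed line in 65702 and with dCD in 70397. Only 20 higher and 26 lower regions passed 2-fold in all 4 lines. From the other side, 4503 regions with a named gene were at least 2-fold higher in both wild type and the floxed line, and 122 of these (2.71%) were so in DKO. Of 5890 that were at least 2-fold lower in both, 118 (2.00%) were so in DKO. A DKO difference under 0.25 in size was found at 2042 (45.3%) of the former and 2814 (47.8%) of the latter. That share was 50.8% over gained, 57.2% over lost and 62.2% over stable regions.

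Losses with good coverage included regions at genes of the naive state. In an intron of Tfcp2l1, a transcription factor of naive pluripotency (chr1:118630009-118634989), reads went from 258 in naive to 97.2 in formative DKO cells. They went from 193 to 61.6 in wild type, from 229 to 51.9 in the floxed line and from 233 to 80.6 in dCD. All 4 lines were lower in the formative state there, and DKO kept the most reads. A second intronic Tfcp2l1 region (chr1:118637585-118640709) went from 75.6 to 26.7 reads in DKO and from 96.9 to 14.8 in the floxed line. The region 53.7 kb beyond the 3′ end of Klf4, whose nearest gene in the table is Gm12505, went from 121 to 38.0 reads in DKO, from 116 to 35.9 in wild type and from 112 to 32.8 in the floxed line. Its log2 differences were −1.63, −1.65 and −1.72, so that the loss in DKO was as large as in the lines with active enzymes, while dCD differed by −0.72.

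Other large losses were shared with dCD in some regions and not in others. Near Fbxo15, an F-box gene expressed in embryonic stem cells, an intronic region (chr18:84937044-84939662) went from 87.3 to 22.6 reads in DKO, the largest decrease among regions with at least 32 DKO reads, and differed by −1.60 in wild type, −1.77 in the floxed line and −1.75 in dCD. An intronic region of Tbx3, a T-box factor of naive cells (chr5:119677070-119679490), went from 114 to 37.8 reads in DKO and from 106 to 37.3 in dCD. It stayed between 82.5 and 85.3 in wild type and went from 117 to 77.1 in the floxed line. Formative DKO and dCD cells thus stood lower there than formative wild-type cells. Regions nearest Mir3971 (chr11:75556026-75558557) and Acsl1, an acyl-CoA synthetase gene (chr8:46490194-46492204), differed by −1.72 and −1.64 in DKO and by −1.99 and −1.47 in the floxed line, but by 0.18 and 0.25 in dCD.

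Among gains with good coverage, regions at Sema3e, Foxp1, Trib2 and Olfm3 are given by their reads. At an intron of Sema3e, a secreted semaphorin (chr5:14026514-14034548), reads went from 92.9 to 274 in DKO, from 139 to 292 in wild type, from 151 to 283 in the floxed line and from 79.2 to 241 in dCD. DKO and dCD started lower than both other lines and ended close to them. The Foxp1 intron, in a forkhead factor gene, went from 62.9 to 162 reads in DKO, from 69.7 to 147 in wild type, from 84.2 to 168 in the floxed line and from 85.9 to 161 in dCD. Near Plaat1 the reads went from 31.3 to 71.3 in DKO and from 21.8 to 90.5 in the floxed line. An intron of Trib2, a pseudokinase gene (chr12:15810406-15812113), went from 17.0 to 47.4 reads in DKO and from 41.0 to 69.1 in the floxed line. The region at the start of Olfm3 (chr3:114903948-114905653), which encodes an olfactomedin protein, had the largest gain among the covered regions, from 22.0 to 69.5 reads, and differed by 1.63 in DKO, 1.13 in wild type and 0.47 in the floxed line.

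**Figure D2:**
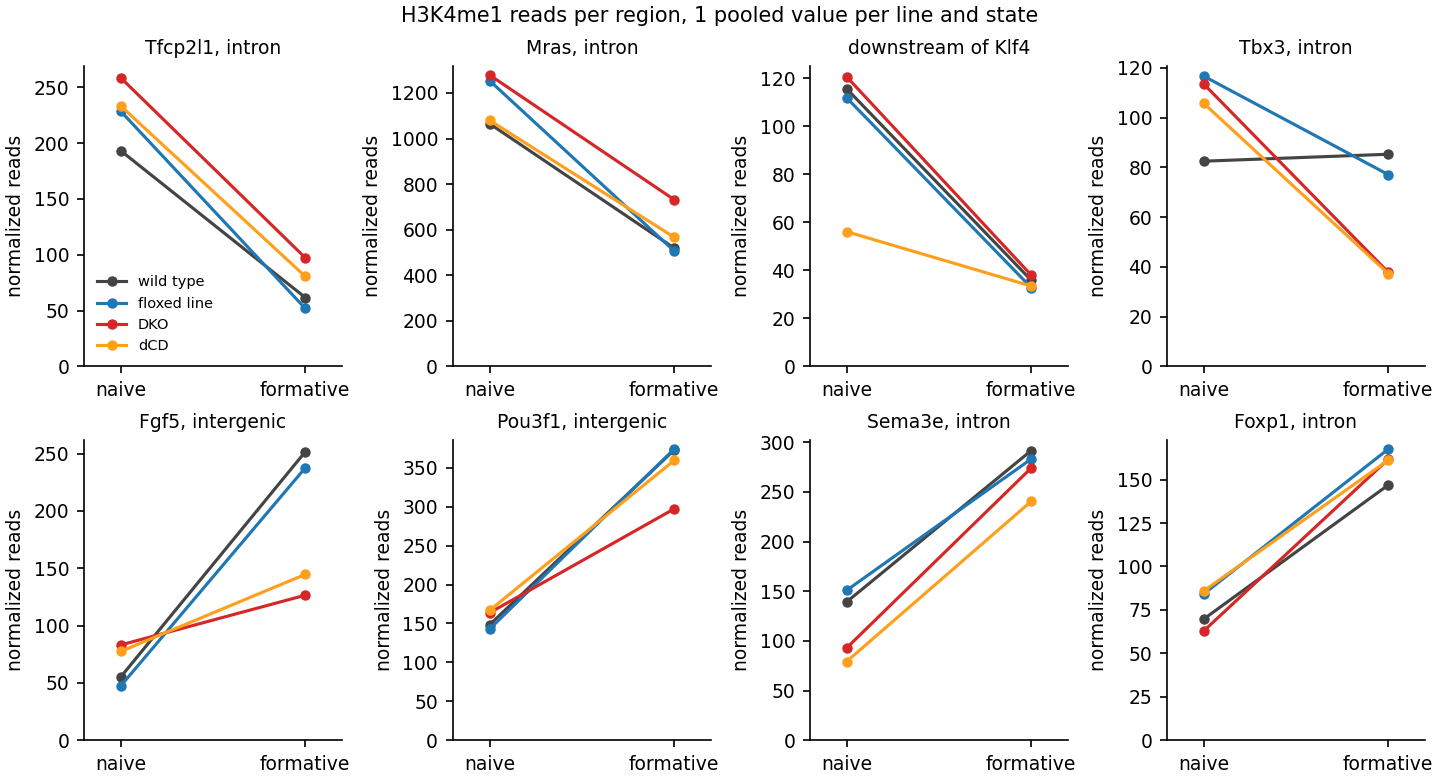
Normalized H3K4me1 reads in naive and formative cells at 8 regions, 1 pooled value per line and state, on linear axes from 0. The Tfcp2l1, Mras and Klf4-side regions drop in DKO, the Fgf5 region gains less in DKO and dCD than in the other lines, and the Sema3e and Foxp1 regions gain in DKO as well.

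Without a minimum of DKO reads, the largest gains and most of the largest losses were found at sites where DKO had few reads. The 8 largest gains lay at Cntnap5b (2.75), Cdh20 (2.30), 1700054K19Rik (2.25), Dmac1 (2.18), BC030500 (1.98), Mup13 (1.97), Mettl4 (1.94) and Kif2b (1.88), on the log2 scale. At Cntnap5b, a neurexin-family gene (chr1:100445517-100447273, intron), the reads were 0.821 in naive and 9.11 in formative DKO cells, against 15.6 and 82.4 in wild type. The 8 largest losses lay at Pramef17 (−2.20), Uqcrb (−1.90), Fbxo15 (−1.89), Dclk3 (−1.88), Foxk1 (−1.86), Nucb2 (−1.74), Mir3971 (−1.72) and 4930524C18Rik (−1.67). Of these losses, Fbxo15 and Mir3971 were well covered, with 87.3 and 85.6 reads in naive and 22.6 and 25.0 in formative DKO cells. At Pramef17 (chr4:143982884-143983954, intergenic) the reads were 8.64 and 1.70 in DKO and 60.4 and 8.64 in wild type. Among the gains whose smallest change over wild type, floxed and DKO cells was largest, Car10, a carbonic anhydrase-related gene, differed by 1.87 in DKO, 2.29 in the floxed line and 2.10 in wild type, with 8.63 and 33.2 DKO reads. It was followed by 4930590L20Rik (1.70 in DKO), Gm10415 (1.60), Cntnap5b and Astn2 (1.56). The matching losses were Pramef17, the Klf4-side region, Fbxo15, Gm10324 (−1.59) and Nptx2 (−1.55).

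At other sites a large transition was absent from DKO. Gpr149 (chr3:62799382-62801594, intergenic) went from 4.34 to 80.1 reads in wild type and from 6.15 to 64.4 in the floxed line, but from 9.81 to 9.90 in DKO and from 11.7 to 16.4 in dCD. Pcsk2, a prohormone convertase gene (chr2:143539587-143542347, intron), went from 14.3 to 110 reads in the floxed line and from 13.7 to 16.1 in DKO. Mir3090, Caln1 and Zfp608 completed the 5 gains of this kind, with DKO differences of −0.05, 0.03 and 0.10. The losses were led by Ywhaq (chr12:21764984-21766615, intergenic), which went from 76.1 to 6.48 reads in the floxed line and from 23.0 to 21.3 in DKO. Zfp977, a Gm10324 region, Vmn2r62 and Pramel6 followed, with DKO differences of −0.04, −0.16, 0.01 and −0.11. Naive DKO cells held 4.55 to 23.0 reads at these 5 lost sites, where wild type held 64.3 to 86.1. The naive floxed line held 20.9 to 115 there. Its lowest value, like that of DKO, was at the Gm10324 region, where dCD held 18.2 and wild type 64.5.

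A few regions changed by at least 2-fold in DKO and by less than 0.25 in both wild type and floxed cells, 25 higher and 23 lower. They came from 16625 regions under 0.25 in both lines. These are smaller shares than the 444 higher and 442 lower of all 111035 regions. Of those named here the best covered was a Phc1 intron (chr6:122327475-122330987), in the gene of a Polycomb protein, which went from 54.0 to 150 reads in DKO, from 102 to 89.9 in wild type, from 91.7 to 90.4 in the floxed line and from 67.6 to 71.9 in dCD. The other 4 largest gains of this kind were at Fbxl4 (1.51), Gpc4 (1.48), Bmp10 (1.43) and Gm33340 (1.38). Naive DKO cells had few reads at these 4, from 3.34 at Fbxl4 to 15.5 at Gpc4. Fbxl4 also differed in dCD, by 1.67. The 5 losses were at Tbl1xr1 (−1.25), Tmem236 (−1.24), Satb1 (−1.21), Kctd15 (−1.17) and Cdv3 (−1.13).

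Genes were then compared as loci, averaging all regions assigned to a gene that lie within 50 kb of its start. Of 19735 loci, 232 (1.18%) were higher in formative DKO cells by 1.5-fold or more and 124 (0.628%) were lower, and among the 11670 with at least 3 regions 26 and 15 were. Among the highest loci with 3 regions or more were Sema3e (0.89), Slc7a7 (0.89), Trib2 (0.83), Rasef (0.82) and Crmp1 (0.79). All 8 Sema3e regions were higher in formative DKO cells, and 3 of them at least 2-fold. Slc7a7, an amino acid transporter gene, and Crmp1, a collapsin response mediator gene, differed by −0.30 and −0.09 in the floxed line. In wild type these 2 loci differed by −0.01 and −0.02, but in dCD by 0.56 and 0.67. The lowest loci were Pramef17 (−0.93), 4930511E03Rik (−0.79), Mras (−0.71), Pdcl2 (−0.71), Slc25a48 (−0.66) and Ffar3 (−0.65).

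Loci of naive pluripotency were lower in formative DKO cells as a group, by a small amount. Their median over 24 loci was −0.22, against 0.03 over all loci, −0.52 in the floxed line and −0.35 in dCD. Of the 24, 21 (87.5%) had a negative difference in DKO, against 43.6% of all loci. One locus, Mras, a RAS-family GTPase gene, was at least 1.5-fold lower in DKO, whereas 12 were in the floxed line. Over all loci the lower share was 0.628% in DKO and 16.0% in the floxed line. At the widest Mras region (chr9:99414306-99440689, intron), reads went from 1278 to 732 in DKO, from 1065 to 519 in wild type, from 1254 to 506 in the floxed line and from 1080 to 567 in dCD. All 4 Mras regions were lower in formative DKO cells. Tfcp2l1 followed at −0.53 (floxed −1.31), with 16 of 17 regions lower and 3 at least 2-fold, and then Nr5a2, an orphan nuclear receptor gene, at −0.40 (floxed −0.74), with 20 of 21 regions lower. Zfp42, also known as Rex1, differed by −0.29 in DKO and −1.32 in the floxed line, in which 13 of its 18 regions were at least 2-fold lower, against 1 in DKO. Loci lower in both wild type and floxed cells and near 0 in DKO were Prdm14 (−0.05 against −1.13 in the floxed line), Dppa2 (−0.08 against −1.35) and Stat3 (0.02 against −0.68).

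At the Klf4 locus the regions of DKO did not move together. Of 10 regions, 7 were lower and 3 higher, and the locus differed by −0.18 in DKO and −0.65 in the floxed line. The region over the gene itself (chr4:55529150-55531697, exon) went from 61.5 to 131 reads in DKO, from 46.2 to 81.9 in wild type and from 45.6 to 82.9 in the floxed line. It was thus higher in all of these lines, while the region 53.7 kb away was lower in all of them. Esrrb, whose product is another nuclear receptor of naive cells, differed by 0.05 in DKO and 0.10 in the floxed line over 19 regions.

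Loci of the formative and primed states were higher in formative DKO cells by a similar amount. The median over 24 of 25 listed loci was 0.24, against 0.03 over all loci, 0.35 in the floxed line and 0.19 in dCD. In DKO 20 of 24 (83.3%) differed upwards, against 56.4% of all loci. Pim2, a serine/threonine kinase gene on the X chromosome (0.73 in DKO, 0.79 in the floxed line), and Wnt8a, a WNT ligand gene (0.61 and 0.92), were at least 1.5-fold higher in DKO. The floxed line had 6 such loci. The share over all loci was 1.18% in DKO and 8.46% in the floxed line. All 4 Pim2 regions were higher in DKO, by 0.60 to 0.84. Pou3f1, a POU factor of formative cells, differed by 0.42 in DKO and 0.91 in the floxed line, with 9 of 9 regions higher in DKO. At its best covered retained gain (chr4:124660624-124669678, intergenic), reads went from 164 to 297 in DKO, from 148 to 373 in wild type, from 143 to 374 in the floxed line and from 167 to 360 in dCD. At another Pou3f1 region (chr4:124635851-124637774) the difference was 0.03 in DKO and 1.22 in the floxed line. Neighbouring regions of 1 gene thus kept and missed the gain.

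Fgf5, a growth factor gene that marks formative cells, differed by 0.29 in DKO, 0.75 in dCD and 1.58 in wild type, and had the widest gap between DKO and floxed cells among these loci. At its downstream region, shown above, reads went from 83.0 to 126 in DKO, from 55.1 to 252 in wild type, from 47.3 to 238 in the floxed line and from 77.4 to 145 in dCD. Naive DKO cells had more reads there than naive wild-type or floxed cells, and formative DKO cells fewer than formative ones of those lines. At an upstream region (chr5:98244707-98248348, intergenic) they went from 69.3 to 64.5 in DKO and from 47.8 to 130 in the floxed line. Sox11 (0.40 in DKO against 0.84 in the floxed line) and Sall2 (0.29 against 0.57) also differed less in DKO, while Etv4 (0.41 against 0.42) and Lef1 (0.29 against 0.31) differed by nearly the same amount in both lines. Otx2 differed by −0.03 in DKO and 0.15 in the floxed line.

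**Figure D3:**
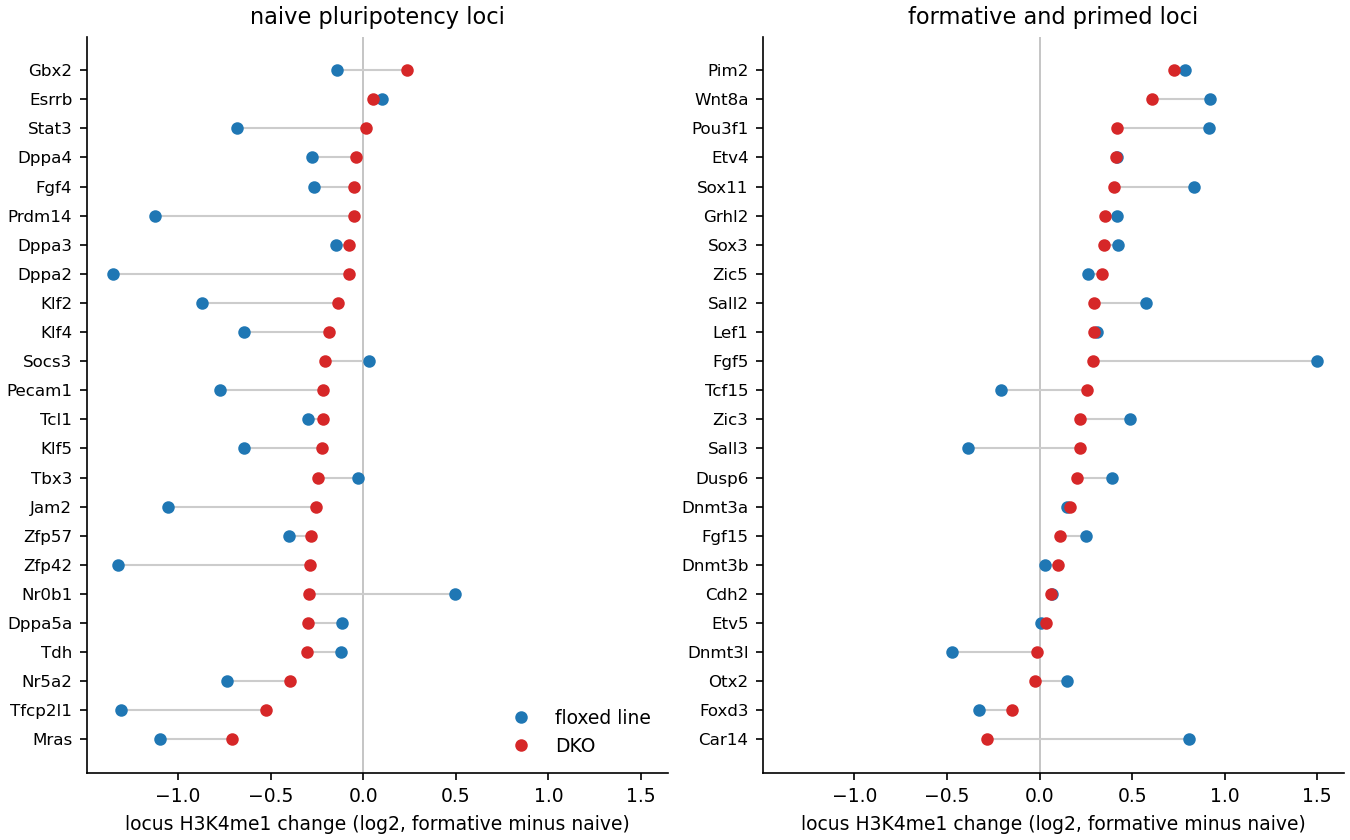
Locus H3K4me1 change (log2, formative minus naive) in the floxed line and DKO for the 24 naive pluripotency and 24 formative and primed loci, ordered by DKO. DKO points lie between −0.71 and 0.73, with Fgf5 and Zfp42 among the widest gaps to the floxed line.

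No locus of the other 11 lists passed 1.5-fold in DKO. Median DKO differences were 0.06 over 12 core pluripotency loci, 0.15 over 14 neural and 0.08 over 16 primitive streak and mesoderm loci. They were −0.04 over 13 endoderm, −0.03 over 12 trophoblast and −0.02 over 10 fibroblast loci. The fibroblast list holds feeder cell markers, but a difference between states cannot show feeder cells present in both. In the authors' deposited table, 5 of its loci had RNA values. Of these, 4 were at least 2-fold higher in formative DKO cells, against 19.9% of all loci, and 4 in wild type. In the floxed line 6 neural and 6 primitive streak and mesoderm loci were higher, against 8.46% of all loci. Pax3, a neural transcription factor gene, differed by 0.29 in DKO and 1.14 in the floxed line, and all 10 of its regions were higher in DKO. Hox genes, 27 loci, had a median of 0.25 in DKO and 0.77 in the floxed line, with 23 of 27 positive (85.2%) and none past 1.5-fold; Hoxb3 (0.29) and Hoxb13 (−0.18) were the highest and lowest with 3 regions. Olfactory and vomeronasal receptor loci held 27 higher (10.3%) and 13 lower (4.98%) of 261 in DKO, against 1.18% and 0.628% of all loci. Those past 1.5-fold had fewer than 3 regions. With 3 or more, the receptor loci ran only from −0.34 (Vmn1r1) to 0.21 (Vmn2r2) in DKO. Over all loci with at least 3 regions the DKO shares were 0.223% and 0.129%. Many receptor loci also passed in the other lines, 96 higher and 39 lower in wild type, 58 and 47 in the floxed line and 21 and 13 in dCD. Among glutamate and GABA receptor loci 34 of 39 were positive (87.2%, median 0.17), against 56.4% of all loci, 2 were at least 1.5-fold higher, and the lowest was Gabrp (−0.32). Among 96 potassium channel loci, Kcnip4 was lowest (−0.58) and Kcna3 highest (0.40).

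By position, regions far from genes passed 2-fold more often. Beyond 100 kb from a start site 203 of 14009 regions (1.45%) were higher and 88 (0.628%) lower, while within 1 kb 5 of 8206 (0.0609%) were higher and 8 (0.0975%) lower. Intergenic regions made up 59.7% of the higher and 56.6% of the lower regions, against 39.8% of all. Median naive DKO reads were 35.0 beyond 100 kb and 98.7 within 1 kb, and read depth and distance cannot be told apart here. Promoter regions within 1 kb differed together by a small amount, with a median of 0.12 in DKO, 0.24 in dCD, 0.08 in the floxed line and 0.17 in wild type. Chromosome medians lay between −0.01 (chromosome 13) and 0.04 (chromosome 14) except on X, where the DKO median was 0.15 over 968 regions and the floxed one 0.13.

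**Figure D4:**
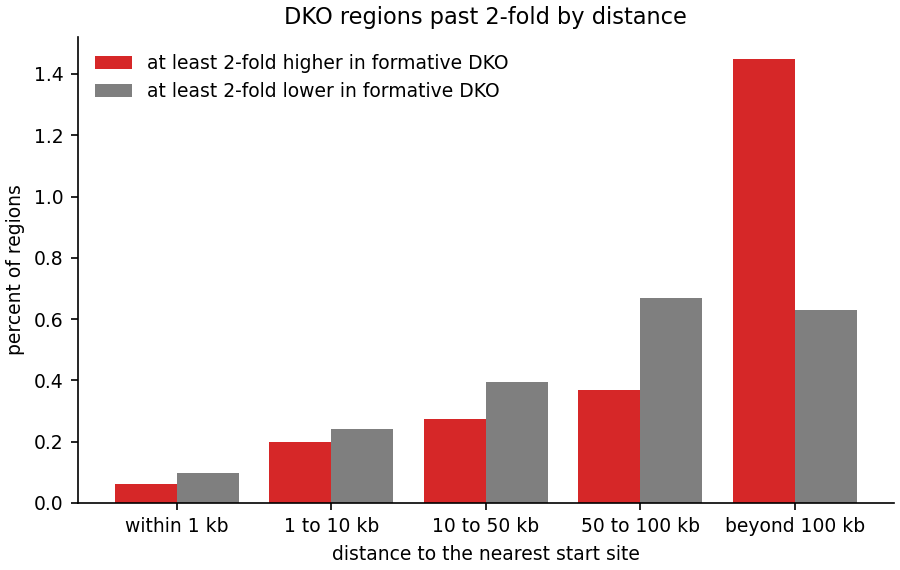
Percent of regions at least 2-fold higher or lower in formative than in naive DKO cells, by distance to the nearest start site, as bars from 0. The higher share climbs from 0.0609% within 1 kb to 1.45% beyond 100 kb.

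Sequence composition of the changed regions was computed over whole regions. The median CpG density was 0.62 per 100 bp in the higher and 0.96 in the lower regions, against 1.25 over all, and GC content was 42.3% and 45.7%, against 46.7%. Regions over 1 kb from a start site were sorted by CpG density into quintiles. In the lowest quintile 1.40% were higher and 0.715% lower, and in the highest 0.141% and 0.112%. Median naive DKO reads were 28.2 and 80.5 in these quintiles, and the part of depth in this was not tested.

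The central 300 bases were searched on both strands for GRHL (AACCGGTT), nuclear receptor half-site (AAGGTCA), KLF (GGGTGTGG), POU octamer (ATGCAAAT), SOX (CATTGTT), OTX (GGATTA), AP-1 (TGANTCA), ZIC (CAGCAGG), STAT (TTCCNGGAA), NRF1 (GCGCATGC), E-box (CACGTG), ETS (CCGGAAGT), YY1 (AAGATGGC) and TEAD (ACATTCC) letters. No motif holds the letters of another. The KLF letters were in 32 of the 442 lower regions (7.24%) and in 7 of the 444 higher ones (1.58%), against 3.39% of all regions. Of wild-type lost regions 4.68% held them, 6.03% of those at least 0.5 lower in DKO and 4.19% of those with a DKO difference under 0.25 in size. Lost regions with the KLF letters had a median DKO difference of −0.18 (n = 701), and those without −0.14 (n = 14274). In the floxed line these medians were −1.06 and −0.97. The nuclear receptor half-site stood at 7.47% in the lower regions, 5.18% in the higher and 6.65% in all. SOX letters stood at 7.47% in the lower regions (33 of 442), 5.63% in the higher and 4.56% in all. The POU octamer stood at 2.26% in the lower regions, 3.83% in the higher (17 of 444) and 1.99% in all. With at least 32 DKO reads, ZIC letters were in 15.4% of wild-type gained regions at least 0.5 higher in DKO and TEAD letters in 8.21%. Among covered gained regions under 0.25 in size the shares were 12.2% and 4.81%. Without a read minimum, ZIC letters were in 13.2% of gained and 11.3% of all regions, and TEAD letters in 5.85% and 4.76%. The E-box stood at 2.93% in the higher, 4.98% in the lower and 4.56% in all. These shares describe letters in a window and not bound sites.

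Median H3K27ac folds had the sign of the residual H3K4me1 differences, though single regions went the other way. In the authors' deposited table, the median DKO log2 fold of H3K27ac, the mark of active enhancers, was 0.47 at the regions higher in DKO, −0.52 at the lower ones and 0.03 at all regions. In the authors' deposited table H3K27ac was higher by 2-fold or more at 34.9% of the higher regions and lower at 15.1%, against 16.8% and 13.9% of all regions. Of the lower regions 36.7% were lower and 16.7% higher there, in the authors' deposited table. At the 205 higher regions that were gained in wild type it was 0.66, and at the 148 lower regions that were lost in wild type −0.96, in the authors' deposited table. At gained regions with a DKO H3K4me1 difference under 0.25 in size, the same authors' deposited table gave a median H3K27ac fold of 0.38 in DKO and 1.16 in wild type. At the Klf4-side region the H3K27ac fold in DKO was −3.51, and at the downstream Fgf5 region 2.46, in the authors' deposited table. The H3K27ac gain at Fgf5 thus stood beside an H3K4me1 difference of 0.57.

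RNA of the nearest genes differed in the matching direction more often than over all genes. In the authors' deposited table, the median DKO RNA fold was 0.91 (log2) over 146 genes nearest the higher regions, 0.12 over 232 genes nearest the lower ones and 0.21 over 10568 genes nearest any region. Of the genes nearest higher regions 46.6% had RNA up by 2-fold or more in the authors' deposited table, against 19.9% of all, and 2.05% had it down. Genes nearest lower regions were split in the authors' deposited table. By the same limit RNA was down at 21.6% of them, against 5.28% of all, and up at 17.7%. Near the lower regions not lost in wild type, 19.4% of genes were down and 20.6% up in the authors' deposited table. For the 674 loci whose RNA was at least 4-fold higher in formative DKO cells in the authors' deposited table, the median H3K4me1 difference was 0.13, with 21 loci (3.12%) at least 1.5-fold higher. Their 136 counterparts with RNA at least 4-fold lower had a median of −0.20, with 9 (6.62%) at least 1.5-fold lower. Over all 10512 loci with RNA, 0.618% were higher and 0.381% lower. In wild type the 830 and 287 loci chosen the same way had medians of 0.41 and −0.42. For loci under 1.5-fold in RNA in the authors' deposited table the DKO median was 0.03.

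Single genes show large RNA folds beside small changes of the mark. Of 22 naive genes with RNA values in the authors' deposited table, 15 were at least 2-fold lower in formative DKO cells, and of 20 formative and primed genes 19 were higher. In the authors' deposited table, over all loci with RNA, 5.28% were lower and 19.9% higher. The authors' deposited table gave Fgf5 an RNA fold of 5.75 in DKO and 6.09 in wild type, and Pou3f1 5.19 and 5.24. Mras had −3.81 and −3.46 and Tfcp2l1 −2.76 and −2.86 in the authors' deposited table, with locus H3K4me1 differences in DKO of −0.71 and −0.53. Prdm14 had an RNA fold of −2.35 in DKO in the authors' deposited table, beside its H3K4me1 difference of −0.05. Sema3e stood at 5.51 in DKO and 3.33 in wild type in the authors' deposited table. Gbx2, a homeobox gene of the naive list, went the other way in that authors' deposited table, with 3.15 in DKO and −2.49 in wild type, and its locus H3K4me1 differed by 0.24 in DKO and −0.14 in the floxed line.

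**Figure D5:**
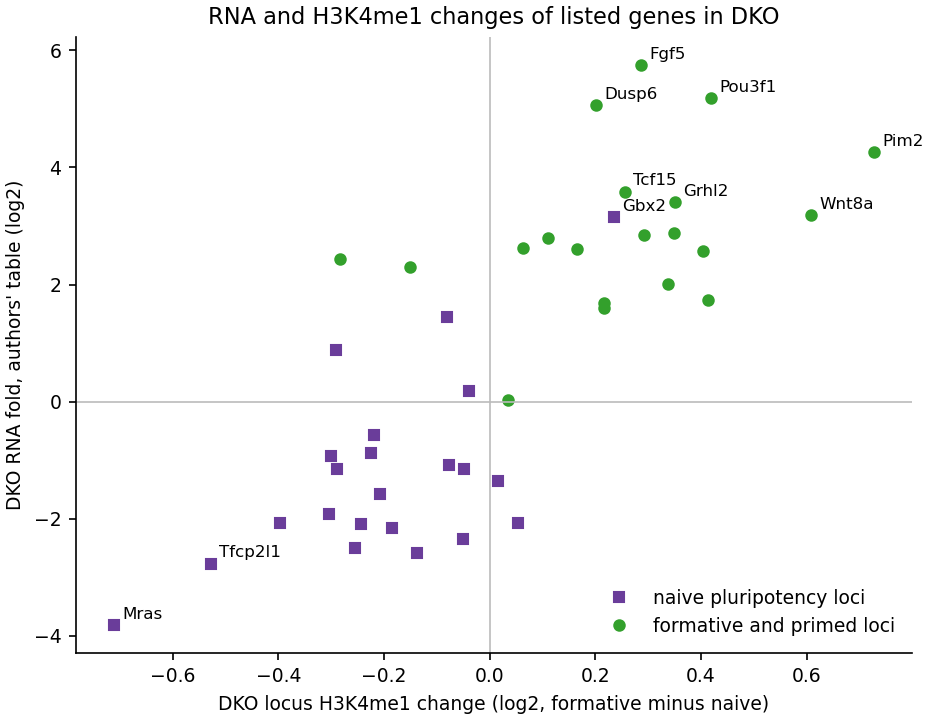
DKO RNA fold of the authors' deposited table (log2) against the DKO locus H3K4me1 change (log2) for naive pluripotency and formative and primed genes with RNA values, 1 point per gene. Fgf5 and Pou3f1 have RNA folds of 5.75 and 5.19 at H3K4me1 differences of 0.29 and 0.42.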

How the data were processed

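H3K4me1 CUT&RUN libraries of 4 genotypes in 2 states were used, 16 of the 21 libraries. The IgG library and the 4 MLL4 libraries were not analysed here. Per the submitters' processing notes the build was mm10 and the tools were Bowtie2, Trim Galore, DiffBind, SEACR and deepTools, with no versions or roles. The labels name different H3K4me1 antibody catalogue numbers in different fields, which was not resolved, so the mark is named as labelled.

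The deposited levels are log2 values, 1 pooled column per group, per the file headers. They followed the log2 of 1 plus a constant times reads over squared width, with an offset of 22.2 estimated in wild type and assumed for the other lines, and this was inverted to give normalized reads as a measure of depth. Levels were compared only within a region. The table also carries the authors' DiffBind comparison of wild type with its FDR, an adjusted p-value, and the authors' log2 fold columns for H3K27ac and RNA, whose libraries lie outside this series. Another 16 columns of per-group values were not used.

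Regions had to have a Conc of at least 5. Regions were counted at 2-fold and loci at 1.5-fold; regions called stable had a log2 fold below 0.5 with an FDR over 0.2. For 271 regions the gene name had become a date and was dropped. Named regions were the 8 largest DKO gains and losses, the 5 largest changes in each direction that DKO kept, that DKO missed, and that DKO showed with under 0.25 in wild type and floxed cells, the 6 highest and lowest loci, listed genes past 1.5-fold or changed only with active enzymes, and the ends of each family. The best covered regions, the printed regions and the regions of single loci were added after values were seen. A few items that these rules pick are not reported here. Members and lists were chosen with earlier results of these data known. The pooled columns gave no test, as the design foresaw. Python 3.11.15 and pandas 2.3.3 were used, and the computations were tested on simulated data.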

Additional observations from a re-analysis of the deposited data

Results flagged for a closer look

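At 12 regions wild type and the floxed line both moved at least 2-fold one way and DKO at least 2-fold the other way. These are 8 (0.178%) of the 4503 regions higher in both lines and 4 (0.0679%) of the 5890 lower in both, below the DKO shares over all regions of 0.398% lower and 0.400% higher. The differences between lines were not tested. In 8 of them DKO was lower: Antxr1 (−1.46), Frzb (−1.32), Olfr874 (−1.20), Nr2f1 (−1.15), Arhgef28 (−1.14), Bmerb1 (−1.08), Lrrn3 (−1.07) and Dusp4 (−1.04), as log2 differences. At Frzb (chr2:80465636-80467802, intergenic), which encodes a secreted WNT antagonist, the reads were 49.2 in naive and 19.2 in formative DKO cells and 23.5 and 50.5 in wild type. In 4 regions DKO was higher: Bcr (1.09), Efr3a (1.07), Asxl1 (1.03) and 2410141K09Rik (1.01). At Bcr, a signalling protein gene, the reads were 16.4 and 35.8 in DKO and 71.4 and 30.5 in wild type. At 2410141K09Rik they were 0.645 and 3.21 in DKO, 9.36 and 2.35 in the floxed line and 123 and 39.4 in wild type. Naive DKO cells had 10.7 reads at Efr3a and 11.0 at Asxl1.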

How the results depend on the processing

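No paired analysis was possible because the table pools the 2 libraries of each group, and for the same reason no library could be left out. The 444 higher and 442 lower DKO regions became 76 and 63 with a Conc of at least 6, 2234 and 2330 with no minimum, 35 and 12 at 3-fold, and 87 and 169 with at least 32 DKO reads, the last chosen after seeing the data. Scaling left these counts within 1.5 times. The DKO medians at gained and lost regions kept their sign in every alternative run. At gained regions the median was 0.17 with an FDR under 0.01, 0.13 with classes from the floxed line and 0.18 with groups centred. At lost regions it was −0.15, −0.17 and −0.11 in these, −0.12 with a Conc of at least 6 and −0.13 with quantile scaling. The percent of gained regions still 2-fold higher was 2.14 with an FDR under 0.01, 2.17 with floxed classes, 0.777 with a Conc of at least 6, 1.98 when centred and 0.530 with at least 32 DKO reads. The percent of lost regions still 2-fold lower was 1.68 with floxed classes, 0.440 with a Conc of at least 6, 0.775 with quantile scaling and 0.736 with at least 32 DKO reads. The median of naive loci lay between −0.22 and −0.17 and that of formative loci between 0.23 and 0.29 in the alternatives run. Fewer regions enter under the stricter limits; the cause of the other shifts was not tested.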
